A study of Mus musculus with 6 samples.

Results

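RNA-seq of fetal thymic stroma was searched for the transcripts of 10 genes known from the pancreatic islet or as targets of autoimmunity in type 1 diabetes. The 10 are the insulin genes Ins1 and Ins2, the islet and gut peptide hormone genes Gcg, Sst, Ppy, Pyy and Iapp, the glutamate decarboxylase genes Gad1 and Gad2, and Ptprn, which encodes the granule membrane protein IA-2. They were chosen by gene symbol, and each had 1 entry among the 22513 entries of the deposited expression table. The stroma came from thymic lobes of C57BL/6 embryos at E15.5 that were either WT or Jmjd6-/-, a constitutive loss of the lysyl hydroxylase gene Jmjd6 obtained by crossing heterozygous mice. All lobes had been cultured for 4 days with 2-DG (2-deoxyguanosine), which removes developing blood cells and spares the stroma. They were then left without RANKL, giving 1 library per genotype, or stimulated with RANKL (1 μg per ml) for 4 days, giving 2 libraries per genotype. RANKL, the ligand of RANK, drives medullary thymic epithelial cells (mTECs) to mature and to express Aire. The study describes the paired libraries as samples while the design text also speaks of technical duplication, so a p-value here measures the spread between these libraries, which may be technical.

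Medullary epithelial cells transcribe many genes that otherwise belong to single peripheral organs. These tissue-specific antigens (TSAs) are shown to developing T cells, so that T cells reactive to them are removed or turned into regulatory cells. The nuclear protein Aire drives a large share of this transcription, and Ins2 is a classic Aire-dependent TSA, whereas Gad1, which encodes the enzyme GAD67, is commonly used as an Aire-independent one. Insulin, IA-2 and the glutamate decarboxylases are also the targets of the autoantibodies by which type 1 diabetes is recognised, and the hormone genes mark the islet β cell (Ins1, Ins2, Iapp), α cell (Gcg), δ cell (Sst) and PP cell (Ppy).

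Sequence upstream of the transcription start is shown for 6 of these genes, since they include the 3 genes that passed the test for RANKL (Iapp, Gad1 and Gcg) and the 3 hormone genes with the largest fitted difference between genotypes and values above the depth limit in WT stroma (Sst, Pyy, Ppy). Each line gives the 100 bases that end just before the start site on the transcribed strand, read 5′ to 3′ from the RefSeq promoter table (GRCm38.p6, the mm10 build of the expression table), and capitals mark TATAA, the core of the TATA box, or TGACGTCA, the cAMP response element. The table matched 9 of the 10 genes.
Iapp, chr6:142298325-142298424, plus strand: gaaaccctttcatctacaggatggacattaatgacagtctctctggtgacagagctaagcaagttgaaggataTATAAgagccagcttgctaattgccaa
Pyy, chr11:102107833-102107932, minus strand: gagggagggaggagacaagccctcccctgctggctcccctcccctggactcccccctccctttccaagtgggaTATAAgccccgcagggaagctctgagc
Ppy, chr11:102101320-102101419, minus strand: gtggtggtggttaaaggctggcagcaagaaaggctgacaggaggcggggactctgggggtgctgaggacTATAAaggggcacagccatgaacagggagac
Gcg, chr2:62483654-62483753, minus strand: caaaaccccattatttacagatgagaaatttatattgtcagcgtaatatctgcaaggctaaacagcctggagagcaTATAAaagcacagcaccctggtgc
Sst, chr16:23890845-23890944, minus strand: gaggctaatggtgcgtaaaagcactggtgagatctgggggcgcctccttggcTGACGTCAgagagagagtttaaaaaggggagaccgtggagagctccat
Gad1, chr2:70562029-70562128, plus strand: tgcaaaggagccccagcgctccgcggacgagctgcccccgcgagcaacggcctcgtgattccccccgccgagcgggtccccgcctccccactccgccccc

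Among the 9 matched genes, Iapp, Pyy, Ppy and Gcg had TATAA on the transcribed strand between 40 and 16 bases before the start, with its first base at −27, −27, −31 and −24, respectively. Of all 32851 promoter windows in the table, 3.52% held it there. Sst held none in the 250 bases before its start and had TGACGTCA at −48, a palindrome found in 1.55% of windows of 250 bases when both strands were searched. The windows of Gad1, Gad2 and Ptprn had 17, 13 and 10 CpG dinucleotides in 250 bases against a median of 6 over all windows, and those of the hormone genes Sst, Gcg, Pyy, Ppy, Iapp and Ins1 had 8, 7, 5, 4, 3 and 0. These matches describe the letters of the windows and were set against no test.

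The stimulation and genotype labels were checked first. Aire stood at 0.142 FPKM (Cufflinks' fragment count scaled by exon length and by the mapped fragments of the library) in unstimulated WT stroma and at 78.0 and 79.7 FPKM in WT stroma with RANKL. In Jmjd6-/- stroma it stood at 0.473 FPKM without RANKL and at 75.1 and 67.1 FPKM with it. Jmjd6 was between 25.9 and 32.5 FPKM in the WT libraries and between 1.32 and 1.96 FPKM in the Jmjd6-/- libraries. Depth, read from the spacing of the lowest FPKM values, was between 15800000 and 31500000 fragments per library. Markers of cortical and medullary epithelium were abundant, and the parathyroid hormone gene Pth was present at 12.2 to 58.8 FPKM. Of 6 thymocyte markers, Ptprc, Cd4 and Lck were above 3 fragments in all 6 libraries, Rag1 in 3, and Cd3e and Cd8a in none (Rag1, Cd3e and Cd8a named after their values were seen). The cultures were thus whole stroma with some blood cell transcripts, in which fewer cells of a type and less RNA per cell cannot be told apart.

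A value was read as measured only when it stood for more than 3 fragments of the gene in that library, rounded to whole fragments, since a gene without a fragment may still have given up to 3 by counting error alone. Such limits cover counting error only. Of the 60 values, 26 were above this limit, and 22 were above a limit 1.5 times higher. Ins1 was at or under it in all 6 libraries, and so was Ins2, though in WT RANKL replicate 2 only by rounding from 3.49 fragments, and Ptprn was above it in all 6. Gad1 and Iapp were above it in 4 libraries, Gcg, Sst and Pyy in 3, Ppy in 2 and Gad2 in 1.

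**Figure D1:**
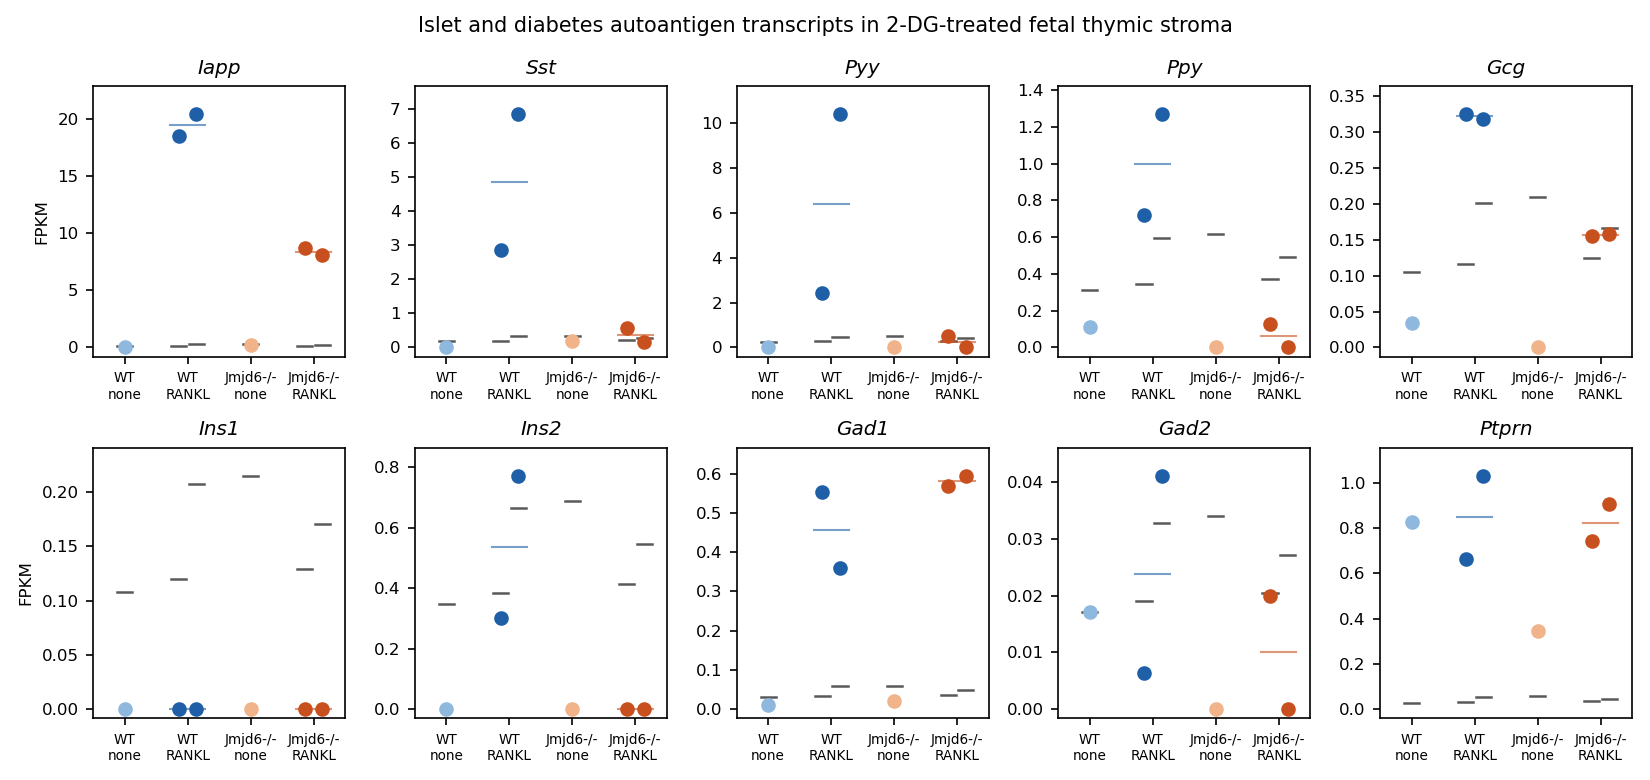
FPKM of the 10 genes (1 panel each, linear axes of different range) in unstimulated (none) and RANKL-stimulated WT and Jmjd6-/- stroma. Each point is 1 library, coloured bars are means of the 2 RANKL libraries, and grey dashes mark the FPKM that 3 fragments give in that library. Iapp, Sst, Pyy, Ppy, Gcg, Gad1 and Ptprn lie above the dashes in both WT RANKL libraries, and Ins2 lies slightly above its dash in WT RANKL replicate 2 (3.49 fragments). Only Iapp and Gad1, with Ptprn, are above the dashes in both Jmjd6-/- RANKL libraries.

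Iapp, which encodes amylin, the peptide that β cells release together with insulin, was by FPKM the most abundant of the 10 under RANKL. It read 0 FPKM in unstimulated WT stroma and 18.5 and 20.4 FPKM in WT stroma with RANKL. In Jmjd6-/- stroma it read 0.241 FPKM without RANKL and 8.67 and 8.07 FPKM with it. All 4 RANKL libraries lay above both unstimulated ones, and the Jmjd6-/- pair with RANKL was lower than each WT library with RANKL. Against the unstimulated WT library, whose 0 allows up to 3 fragments, the WT mean with RANKL was at least 135-fold higher, and in Jmjd6-/- stroma the ratio was 29.2 (95% counting interval 9.89 to 143). The rise over both genotypes was 6.12 ± 0.59 (SE) on the log2(FPKM + 0.1) scale and passed the test (limma, adjusted p = 0.00118). Under RANKL the Jmjd6-/- mean was 43.0% of the WT mean, a difference of −1.21 ± 0.18 (SE) on the same scale (limma, adjusted p = 0.0429). The call between genotypes was near the threshold: without WT RANKL replicate 2 and without Jmjd6-/- RANKL replicate 1 or 2 its adjusted p was 0.0557, 0.286 and 0.394, while the difference itself stayed between −1.28 and −1.12 over all alternatives. The Iapp entry lies inside a deposited locus (chr6:142234227-142322981) shared with Slco1a5, a transporter gene on the other strand, whose values had the opposite order (1.74 and 2.90 FPKM in the WT and 3.86 and 3.87 FPKM in the Jmjd6-/- RANKL libraries).

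Sst encodes somatostatin, the peptide by which δ cells inhibit the release of insulin and glucagon. Its level was 0 FPKM in unstimulated WT stroma and 2.86 and 6.85 FPKM in WT stroma with RANKL. In Jmjd6-/- stroma it was 0.191 FPKM without RANKL and 0.560 and 0.153 FPKM with it, and of these 3 values only that of RANKL replicate 1, about 8 fragments, was above the depth limit. The WT RANKL mean was at least 27.6-fold above the unstimulated WT library, and 10.9 times the Jmjd6-/- RANKL mean by pooled fragments (95% counting interval 5.69 to 23.3). The fitted difference under RANKL was −3.47 ± 0.61 (SE, log2), larger than that of Iapp, and it missed the threshold (limma, adjusted p = 0.0583). Over all alternatives this difference ran from −4.16 to −2.04, and its adjusted p fell on both sides of the threshold. The WT libraries differed 2.39-fold from each other.

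Pyy and Ppy encode peptide YY and pancreatic polypeptide, relatives of neuropeptide Y that lie next to each other on chromosome 11. Pyy was at 0 FPKM in both unstimulated libraries, at 2.41 and 10.4 FPKM in WT stroma with RANKL and at 0.504 and 0 FPKM in Jmjd6-/- stroma with RANKL. Ppy was at 0.112 and 0 FPKM in unstimulated WT and Jmjd6-/- stroma, at 0.724 and 1.27 FPKM with RANKL in WT and at 0.126 and 0 FPKM with RANKL in Jmjd6-/- stroma. For both genes each WT RANKL library lay above every other library, and replicate 2 was the higher one, by 4.30-fold for Pyy and 1.76-fold for Ppy. By pooled fragments the WT RANKL libraries had 18.6 times as much Pyy as the Jmjd6-/- ones (95% counting interval 7.70 to 58.8). For Ppy the ratio was 12.4, with an interval of 1.84 to 531, since it rests on 12 fragments against 1. The fitted differences of −4.38 ± 1.04 and −2.82 ± 0.52 (SE, log2) missed the threshold (limma, adjusted p = 0.0992 and 0.0613). Over all alternatives they ran from −6.13 to −2.35 for Pyy and from −4.71 to −0.90 for Ppy. For both, the adjusted p fell on both sides of the threshold.

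Gcg encodes proglucagon, the precursor of glucagon and GLP-1. It was at 0.0336 FPKM in unstimulated WT stroma and at 0.325 and 0.318 FPKM in WT stroma with RANKL. In Jmjd6-/- stroma it was at 0 FPKM without RANKL and at 0.155 and 0.158 FPKM with it. The groups did not overlap, but the values stand for only 8 and 5 fragments in WT and 4 and 3 in Jmjd6-/- RANKL libraries. The unstimulated Jmjd6-/- library, at 0, allows up to 3 fragments. Against that limit the Jmjd6-/- RANKL mean was at least 0.749-fold, so a rise within Jmjd6-/- stroma was not shown by counting. The rise over both genotypes was 1.51 ± 0.30 (SE, log2) and passed the test (limma, adjusted p = 0.0204). That call was lost, at adjusted p of 0.0677 to 0.158, without either unstimulated library or either Jmjd6-/- RANKL library. The Jmjd6-/- mean under RANKL was 48.7% of the WT mean, and the counting interval of the ratio of WT to Jmjd6-/-, 0.713 to 5.69, included equality (limma, log2 difference −0.72 ± 0.32 SE, adjusted p = 0.314).

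The insulin genes stayed within the depth limit. Ins1 was listed at 0 FPKM in all 6 libraries, which at 3 fragments allows up to 0.108 to 0.215 FPKM depending on the library. Ins2 was at 0.302 and 0.773 FPKM in the WT RANKL libraries and at 0 FPKM in the other 4. With a transcript length of 455 bases these 2 values are 2 and 3 whole fragments, the second rounded from 3.49, and with the longest annotated transcript they would be 3 and 5. No fold was computed for Ins2, because every library was at or under the limit in whole fragments. Its fitted difference under RANKL, −2.57 ± 0.48 (SE, log2), depends on the added 0.1 and missed the threshold (limma, adjusted p = 0.0619). The study selected Ins2, Sst and Ppy on these same libraries, so the direction of these 3 here is not independent evidence. By real-time PCR the study also reported lower Ins2 in RANKL-stimulated Jmjd6-/- stroma and in Jmjd6-/- embryonic thymi, with Gad1 unaffected.

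Gad1 encodes GAD67, the cytosolic form of the enzyme that makes the transmitter GABA from glutamate. It was at 0.0108 FPKM in unstimulated WT stroma and at 0.552 and 0.359 FPKM in WT stroma with RANKL. In Jmjd6-/- stroma it was at 0.0209 FPKM without RANKL and at 0.568 and 0.595 FPKM with it. All 4 RANKL libraries lay above both unstimulated ones, and the Jmjd6-/- RANKL libraries were slightly above the WT ones. The rise was 2.40 ± 0.29 (SE, log2; limma, adjusted p = 0.00296) and passed the test under every alternative that kept the gene. The ratio of WT to Jmjd6-/- under RANKL was 0.831 (95% counting interval 0.596 to 1.15), and the fitted difference of 0.32 ± 0.33 (SE, log2) did not pass (limma, adjusted p = 0.675). Gad1 shares its deposited locus with Erich2, which was at 1.48 and 1.07 FPKM in WT and 0.290 and 0.397 FPKM in Jmjd6-/- RANKL libraries.

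Gad2 encodes GAD65, the membrane-bound form of that enzyme and the form most often recognised by autoantibodies in diabetes. Its 6 values were between 0 and 0.0412 FPKM, with 1 library, WT RANKL replicate 2, at 4 fragments and the others at 3 or fewer. Its mean was below the filter of 0.1 FPKM, so it was not tested.

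Ptprn, which encodes IA-2, a protein of the insulin granule membrane, was present without RANKL. It was at 0.826 FPKM in unstimulated WT stroma and at 0.663 and 1.03 FPKM in WT stroma with RANKL. In Jmjd6-/- stroma it was at 0.344 FPKM without RANKL and at 0.744 and 0.905 FPKM with it. The unstimulated WT value lay between the WT RANKL values, and the unstimulated Jmjd6-/- library was the lowest of the 6. By pooled fragments the ratio of RANKL to unstimulated was 0.961 in WT (95% counting interval 0.724 to 1.28). In Jmjd6-/- stroma it was 2.41 (1.46 to 4.19), each ratio resting on 1 unstimulated library. Neither the RANKL term (0.53 ± 0.32 SE, log2; limma, adjusted p = 0.322) nor the genotype difference under RANKL (−0.01 ± 0.31 SE, log2; limma, adjusted p = 0.988) passed. The ratio of WT to Jmjd6-/- under RANKL was 0.979 (95% counting interval 0.756 to 1.27). The 3 genes with the most similar pattern over the 6 libraries, among genes averaging 1 FPKM or more, were Rrp8, S1pr2 and Znrf1, with Pearson r of 0.993, 0.982 and 0.979. These are descriptions over 6 libraries, the highest values among all such genes.

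**Figure D2:**
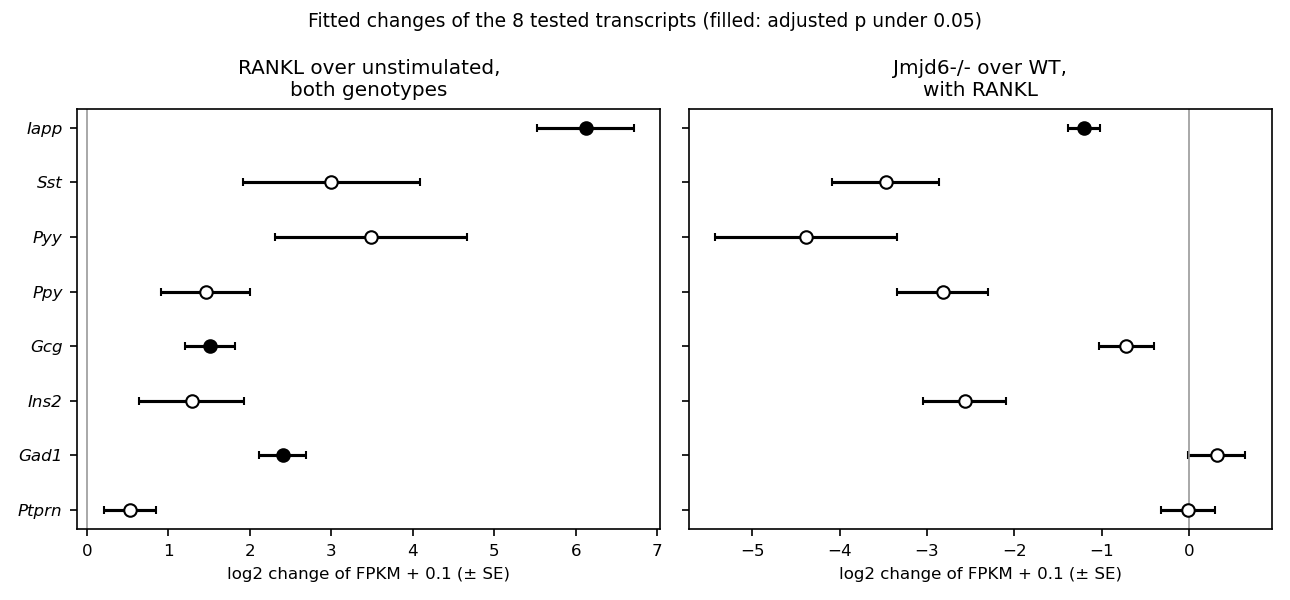
Fitted log2 changes of FPKM + 0.1 with SE for the 8 genes that were tested, for RANKL over both genotypes (left) and for Jmjd6-/- over WT with RANKL (right). Filled points passed an adjusted p of 0.05: Iapp, Gad1 and Gcg on the left and Iapp alone on the right, where Pyy, Sst, Ppy and Ins2 have larger estimates and wider errors.

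Set against the whole table, the response to RANKL was not uniform over the 10 genes. Of the 8 tested, 3 rose with RANKL over both genotypes (Iapp, Gad1 and Gcg), and 10.5% of all 15894 entries tested did so. The rises of Sst, Pyy and Ppy (3.00, 3.49 and 1.46, log2) did not pass (limma, adjusted p = 0.121, 0.101 and 0.132). This fit has 1 RANKL term for both genotypes, so a response that differs between genotypes adds to its error. The median change of the 8 was 1.95 on the log2 scale, while that of all entries was −0.02. Both WT RANKL libraries were above the unstimulated WT library for 7 of the 8 (34.6% of all entries), and both Jmjd6-/- RANKL libraries were above the unstimulated Jmjd6-/- library for 4 of the 8 (40.8% of all entries). The 4 were Iapp, Gad1, Gcg and Ptprn. Ins2, Ppy, Pyy and Gcg reached the filter only through their WT RANKL libraries, so their WT rise follows in part from the filter. Every tested gene but Ptprn was at or under the depth limit in both unstimulated libraries, so the size of its fitted rise depends on the added 0.1 FPKM.

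Between genotypes under RANKL, 1 of the 8 (Iapp) was lower in Jmjd6-/- stroma by the test, and 1.82% of all entries were. Both Jmjd6-/- RANKL libraries were below both WT ones for 6 of the 8 (Ins2, Gcg, Sst, Ppy, Pyy and Iapp), and 26.2% of all entries showed that order. All 6 are hormone genes, and the other 2 tested genes, Gad1 and Ptprn, encode an enzyme and a receptor-like phosphatase. Ins2, Ppy, Pyy and Gcg reached the filter of 0.1 FPKM only through their WT RANKL libraries, so their order follows in part from the filter. Ins2 was also at or under the depth limit in every library. The median difference of the 8, these genes included, was −1.89 on the log2 scale against 0.01 for all entries. With 2 libraries against 2, an exact two-sided permutation test of a single gene cannot go below p = 0.333, so these orders were not tested gene by gene in that way. Whether the response to RANKL itself differed between genotypes was tested as an interaction. It called none of the 8 tested genes and 0% of all entries (limma, 0 of 15894, against 118 higher and 546 lower at an unadjusted p under 0.05). The interaction estimates were −2.98 for Iapp (unadjusted p = 0.000137, adjusted p = 0.702) and −5.02 for Sst (unadjusted p = 0.0042, adjusted p = 0.716), and each rests on 1 unstimulated library per genotype.

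Levels of other cell types were set beside these differences. The summed FPKM of 10 mTEC markers was 3156 and 4051 in the WT and 4250 and 4076 in the Jmjd6-/- RANKL libraries. Most of it was Krt5 (1006 and 1471 against 1887 and 1879) and H2-Aa (1744 and 2158 against 1938 and 1784). The mTEC sum thus says little of the other mTEC markers. The sum of 6 mesenchymal markers was 395 and 349 against 254 and 242. Col1a2, a fibrillar collagen gene of the mesenchyme, was the only gene of the marker lists that differed between genotypes under RANKL (−0.80 ± 0.11 SE, log2; limma, adjusted p = 0.035), a call lost without WT RANKL replicate 2 and without Jmjd6-/- RANKL replicate 1 or 2 (adjusted p = 0.0513, 0.322 and 0.244), and also without the variance trend (0.0684) and without the filter (0.15). The 3 parathyroid markers (Gcm2, Pth and Casr) summed to 59.6 and 12.5 FPKM in unstimulated WT and Jmjd6-/- stroma, to 35.5 and 28.7 FPKM with RANKL in WT and to 18.8 and 21.3 FPKM with RANKL in Jmjd6-/- stroma. The 9 neuronal and glial markers summed to 7.25 and 6.92 FPKM with RANKL in WT and to 5.51 and 5.02 FPKM with RANKL in Jmjd6-/- stroma. Among thymocyte markers, Lck was at 1.91 and 1.71 FPKM in the WT and 0.728 and 0.797 FPKM in the Jmjd6-/- RANKL libraries (limma, adjusted p = 0.0765), and the 6 summed to 5.83 and 6.72 against 4.47 and 5.15 FPKM. The part of the mesenchymal, parathyroid, neural and thymocyte levels in the hormone results was not tested.

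Most transcription factors that build the islet were low or not detected. Of 14 islet factors, 10 exceeded 3 fragments in at least 1 library and 5 passed the filter. The 4 that never exceeded 3 fragments were Pdx1, Nkx2-2, Pax4 and Mnx1 (named after their values were seen), the first of which directs pancreas formation and insulin transcription, and Mnx1 was listed at 0 in all 6 libraries. Insm1, a zinc-finger factor of endocrine cells, rose by 7.35 ± 0.39 (SE, log2; limma), from 0.315 to 39.7 and 30.7 FPKM in WT and from 0 to 31.7 and 31.0 FPKM in Jmjd6-/- stroma. Isl1 and Mafa were present in every library, at 40.3 to 45.8 and 16.3 to 30.1 FPKM, and neither passed a test. Mafa was at 30.1 FPKM without RANKL and 16.3 and 17.3 FPKM with it in WT stroma. In Jmjd6-/- stroma it was at 28.2 FPKM without RANKL and 26.6 and 25.9 FPKM with it. Its genotype difference under RANKL, 0.64 ± 0.11 (SE, log2), was near the threshold (limma, adjusted p = 0.0561). Insm1 was thus the 1 of 5 tested factors that rose (10.5% of all entries), none fell, and none differed between genotypes by the test.

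**Figure D3:**
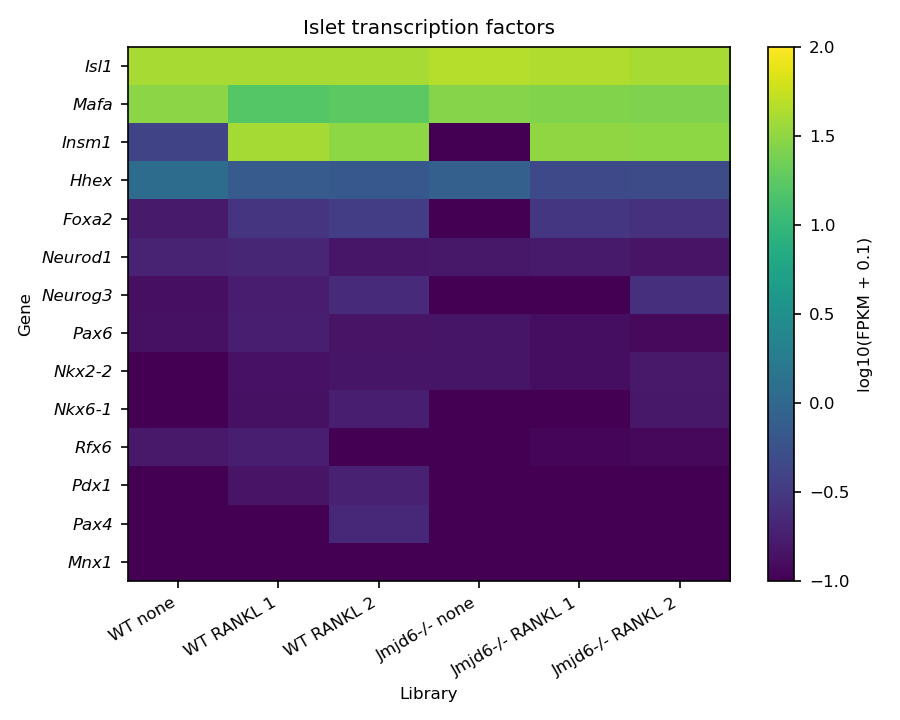
Level of 14 islet transcription factors as log10(FPKM + 0.1), from dark (0 FPKM) to bright, in the 6 libraries. Isl1 and Mafa are bright in every library and Insm1 in the 4 RANKL libraries, where it is 30.7 to 39.7 FPKM, while Pdx1, Pax4 and Mnx1 stay dark.

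Genes of hormone processing and the secretory granule rose in part. Of 18 listed, 12 were tested, 5 rose with RANKL and none fell, while over all entries 10.5% rose and 4.11% fell. They were Scg2 and Scg5, granule proteins of the secretogranin group (2.82 ± 0.28 and 2.06 ± 0.36 SE, log2), Vgf, a neuroendocrine peptide precursor (3.02 ± 0.36), Abcc8, the sulfonylurea receptor subunit of the β cell potassium channel (2.16 ± 0.21), and Pcsk2, the convertase that cuts proinsulin and proglucagon (1.97 ± 0.37). Pcsk2 was at 0.307 and 0.249 FPKM in the WT and 0.553 and 0.615 FPKM in the Jmjd6-/- RANKL libraries, so that the Jmjd6-/- pair was higher. Scg2 (2.28 and 3.12 against 1.99 and 1.81 FPKM), Scg5 (2.37 and 2.07 against 1.68 and 1.29 FPKM) and Vgf (0.828 and 1.39 against 0.468 and 0.457 FPKM) had the lower values in Jmjd6-/- stroma, and the libraries of Abcc8 were at 2.18 and 3.02 FPKM in WT and 3.80 and 3.10 FPKM in Jmjd6-/- stroma. Pam, Chga and Cpe, which amidate, package and trim peptides, were present in all libraries at 21.6 to 32.6, 13.0 to 30.7 and 6.55 to 10.9 FPKM and passed no test. None of the 12 differed between genotypes by the test.

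Other diabetes autoantigens changed little with RANKL. Of 8 listed, 6 were tested. Hspd1, the mitochondrial chaperone HSP60, rose by 0.53 ± 0.09 (SE, log2), and Sox13, a transcription factor recognised by islet cell autoantibodies, fell by 0.68 on the log2 scale (SE 0.14), with 10.5% of all entries rising and 4.11% falling. Both calls were lost without either unstimulated library, without either Jmjd6-/- RANKL library and without the filter (limma, adjusted p from 0.0524 for Hspd1 and from 0.0565 for Sox13). Tspan7, Chga and Ptprn2 (the IA-2β gene) were the most abundant of those that passed no test, and Ptprn2 lay between 5.54 and 7.07 FPKM in all 6 libraries. Around the glutamate decarboxylases, 3 of 5 listed genes of GABA metabolism were tested and none passed. Abat, the enzyme that breaks GABA down, lay between 48.8 and 85.3 FPKM, and Aldh5a1, which acts after it, between 4.72 and 7.36 FPKM.

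Peptides related to the members gave a closer comparison. Calca and Calcb encode calcitonin with CGRP and β-CGRP, and share the calcitonin family with Iapp. Calcb rose from 0.388 to 73.3 and 103 FPKM in WT and from 0.832 to 103 and 92.1 FPKM in Jmjd6-/- stroma (7.09 ± 0.21 SE, log2). Calca rose from 3.07 to 28.2 and 42.6 FPKM in WT and from 1.86 to 31.6 and 29.6 FPKM in Jmjd6-/- stroma (3.71 ± 0.19 SE, log2). In both, the RANKL libraries of the genotypes overlapped, whereas those of Iapp did not. Npy, the parent member of the Pyy and Ppy family, stood at 0.0877 and 0 FPKM in unstimulated WT and Jmjd6-/- stroma, at 3.62 and 4.73 FPKM with RANKL in WT and at 2.10 and 2.47 FPKM with RANKL in Jmjd6-/- stroma. It rose by 4.54 ± 0.21 (SE, log2), and its difference between genotypes, −0.83 ± 0.26 (SE, log2), did not pass (limma, adjusted p = 0.176).

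**Figure D4:**
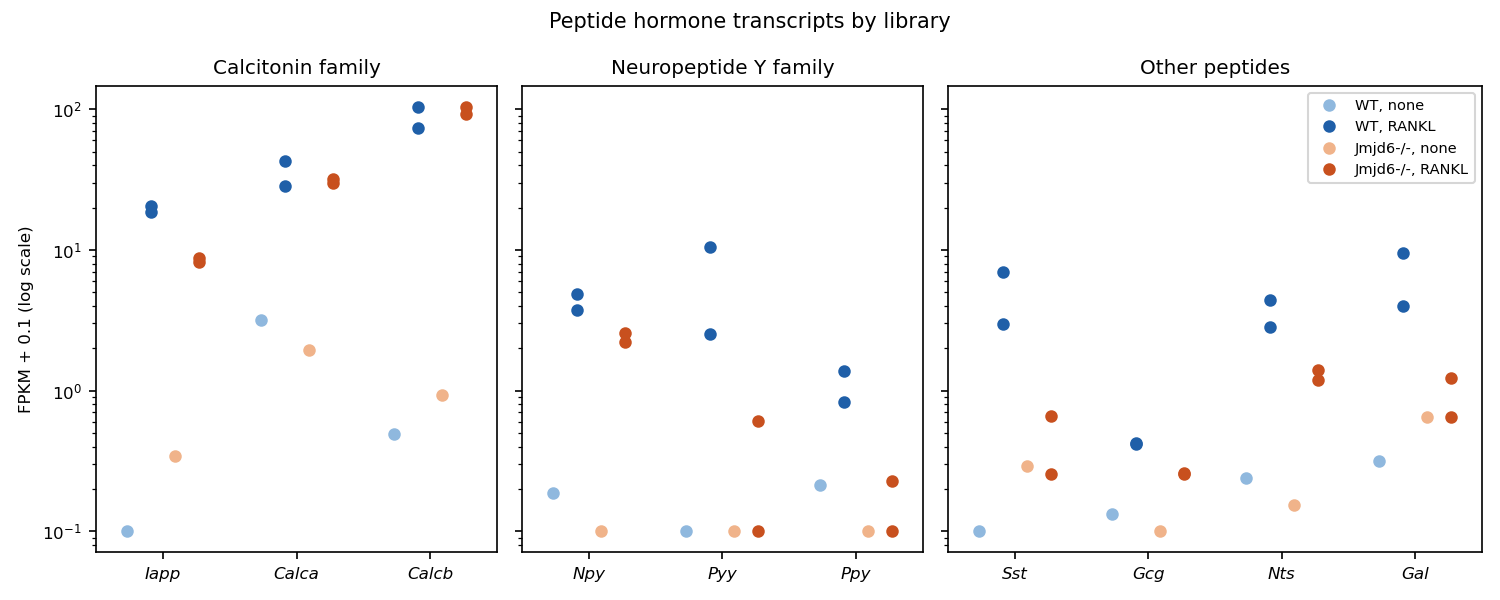
FPKM + 0.1 on a log axis for the calcitonin family (Iapp, Calca, Calcb), the neuropeptide Y family (Npy, Pyy, Ppy) and other peptides (Sst, Gcg, Nts, Gal), each point being 1 library coloured by genotype and stimulation. The Jmjd6-/- RANKL libraries overlap the WT ones for Calca and Calcb and lie below them for the other 8 genes shown. Cck, whose Jmjd6-/- RANKL libraries lie above the WT ones, is not shown.

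Over the whole list of 12 neuropeptide and gut hormone genes, all were tested, 5 rose with RANKL (Npy, Calca, Calcb, Nts and Tac1; 10.5% of all entries rose), none fell and none differed between genotypes by the test. The median change with RANKL was 2.32 and the median difference between genotypes −1.15 on the log2 scale, against −0.02 and 0.01 for all entries. Some of the 12 reached the filter of 0.1 FPKM only through their WT RANKL libraries, so both medians follow in part from the filter. Nts, the neurotensin precursor, was at 2.74 and 4.31 FPKM in the WT and 1.30 and 1.08 FPKM in the Jmjd6-/- RANKL libraries. Gal, the galanin precursor, was at 3.87 and 9.46 FPKM in WT and 1.13 and 0.554 FPKM in Jmjd6-/- RANKL libraries. Cck, which encodes cholecystokinin, was present without RANKL, at 11.4 to 34.0 FPKM over all 6 libraries, and passed no test. Its order was the opposite, at 13.9 and 18.3 FPKM in the WT and 18.9 and 23.1 FPKM in the Jmjd6-/- RANKL libraries. Of 12 genes of the exocrine pancreas, 5 were tested and 2 rose with RANKL (10.5% of all entries). These were Clps, which encodes colipase, the cofactor of pancreatic lipase (2.40 ± 0.47 SE, log2), and Cel, which encodes bile salt-stimulated lipase (1.93 ± 0.39; named after its values were seen). Clps was at 1.16 and 2.74 FPKM in the WT and 0.270 and 0.184 FPKM in the Jmjd6-/- RANKL libraries, and no exocrine gene differed between genotypes by the test. Clps and Cel reached the filter only through their WT RANKL libraries. Their rise, and the order of Clps between genotypes, follow in part from the filter.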

How the data were processed

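Poly-A RNA of E15.5 thymic stroma was sequenced by the authors in paired-end mode. Per the submitters' processing notes and the study's methods, reads were mapped to mm10 with TopHat2 2.0.10, and the authors deposited FPKM values computed with Cufflinks 2.1.1 (multi-read correction, strand-specific setting), used here as deposited. The library kit is not described as keeping strand, so reads of Iapp and of Slco1a5 on the other strand may not have been separated. Erich2 lies on the same strand as Gad1, so strand could not separate reads where they overlap. The treatment field gives RANKL for every sample, and groups follow titles and the stimulation field.

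Depth was estimated from the steps of low FPKM over 8768 genes with 1 transcript, with transcript length less 180 bases, as 15800000 to 31500000 fragments per library. Fold intervals are exact and pool the fragments. Differences were fitted with limma 3.58.1 (R 4.3.3) on log2(FPKM + 0.1) for entries averaging 0.1 FPKM or more, with a variance trend and Benjamini-Hochberg adjustment (threshold 0.05, two-sided). RANKL was fitted with genotype as a term, and genotypes in a model of 4 condition means. The fits were tested on simulated data. Genes were named by rule: all 10, then list genes past a threshold or among the 3 most abundant not past it (for marker lists, the 3 most abundant), and the 3 with patterns most like a gene measured in all libraries. The 10 genes and all lists were chosen with earlier results of these data known. Alternatives were added constants, filters, scalings, no trend, a replicate block, RANKL libraries only, libraries left out and depth limits. A limit from the longest transcript was chosen after seeing the data. Some listed items are not reported here.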

Additional observations from a re-analysis of the deposited data

How the results depend on the processing

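Of the alternative values of the 8 tested genes, 100 of 107 for RANKL, 82 of 99 for genotype and 85 of 91 for the interaction kept their direction and side of the threshold. Entries rising with RANKL numbered 788 without a filter against 1675, and 623 to 2165 with a library left out. Members rising numbered 1 with a filter at a mean of 1 FPKM, which left fewer of them in the test, and 2 to 3 with a library left out. Sst passed without the unstimulated Jmjd6-/- library (adjusted p = 0.0164, limma) and Pyy without Jmjd6-/- RANKL replicate 2 (adjusted p = 0.0318, limma).

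Entries lower in Jmjd6-/- stroma under RANKL numbered 290. There were 172 with a filter at a mean of 1 FPKM, 1 without a filter and 180 with an added constant of 0.01, and 68 to 1737 with a RANKL library left out (152 without Jmjd6-/- replicate 1, 68 without Jmjd6-/- replicate 2, 1737 without WT replicate 1 and 149 without WT replicate 2). The single member called, Iapp, was lost with equal totals, with no filter and with an added constant of 0.01 (0 members each; adjusted p = 0.0515, 0.169 and 0.0623), and 0 to 3 members passed with a library left out. The cause was not tested. The interaction called 176 entries without a filter and 0 to 5 with a RANKL library left out.

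With a replicate block, entries lower in Jmjd6-/- stroma numbered 1081 with 5 members (Iapp, Ins2, Ppy, Pyy and Sst), and the interaction called 94 entries with 3 members (Iapp, Pyy and Sst). The numbers share no stated origin, and deviations of same-numbered libraries correlated at −0.040 over entries, so they were not taken to pair the samples. With a RANKL library left out, the genotype difference of Ptprn ran from −0.30 to 0.27, with a sign change without WT replicate 2 (0.27) and without Jmjd6-/- replicate 1 (0.11). The interaction changed sign to 1.13 for Gcg and −0.19 for Gad1 with an added constant of 0.01, and with a RANKL library left out that of Gad1 ran from −0.062 (without WT replicate 2) to 0.44. Genes at or under the depth limit in all libraries numbered 1 (Ins1) instead of 2 with a limit of 1 fragment or with the longest transcript of each gene, and 3 with a limit 1.5 times higher. Gcg lost its rise with an added constant of 1 (adjusted p = 0.0702). Of the list genes, Pcsk2, Scg5, Hspd1, Sox13, Tac1, Cel and Clps lost their call for RANKL without the unstimulated WT library, the unstimulated Jmjd6-/- library or a Jmjd6-/- RANKL library (adjusted p of 0.0502 or more, limma) and without the filter. Depth limits Ins1, Ins2, Gad2, Ppy and Gcg most.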

Other observations

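Over the 15894 entries tested, the WT RANKL libraries differed more from each other than the Jmjd6-/- ones did. The median absolute difference between replicates was 0.30 in WT and 0.09 in Jmjd6-/- stroma on the log2 scale, and the correlation over entries was 0.979 and 0.994. For the hormone genes no such order held throughout. In WT stroma replicate 2 was above replicate 1 by 4.30-fold for Pyy, 2.39-fold for Sst and 1.76-fold for Ppy, while in Jmjd6-/- stroma these genes were at 0.504 and 0, 0.560 and 0.153, and 0.126 and 0 FPKM, near or under the depth limit. Iapp differed by 1.10-fold between the WT libraries, and Gad1 went the other way, with replicate 2 at 0.650 times replicate 1.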
